A study of Mus musculus with 146 samples.

Results

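Amygdala and hypothalamus of the same mice were compared in the Air group of a study of alcohol dependence, so that the genes that set these brain regions apart could be described in animals without vapor exposure. The members were the 34 libraries of the 17 Air mice that had a library from both regions, out of 36 Air libraries of amygdala and hypothalamus and 146 libraries in the whole series. The libraries were paired by the mouse number in the sample title. There were 10 males and 7 females, all C57BL/6J, and the labels gave no age. The Air mice, labelled non_dependent, were not free of alcohol. They had drunk 15% ethanol or water by choice in 2-h sessions on 5 days a week for 4 weeks and again between exposures, and they had been given pyrazole, an inhibitor of alcohol dehydrogenase, at 68.1 mg/kg before each of 4 cycles of air exposure (16 h on and 8 h off for 4 days). Tissue was taken about 1 week after the last exposure, so the values describe drinking, pyrazole-treated mice and no untreated mouse was part of the comparison. The vapor mice, used below as a second set of animals, had the same drinking and pyrazole, with 1.75 g/kg ethanol injected and ethanol vapor in place of air.

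The measured quantity was RNA from micropunches, small cylinders cut from a brain slice, counted by TagSeq, in which reads come from the 3′ end of transcripts, so a level is not scaled by gene length. Levels are given as CPM, the count of a gene relative to the summed counts of its library. Those sums were first scaled by TMM factors, computed over all brain libraries to adjust for differences in composition. Ranges and overlaps of levels are on this scale. Log2 fold changes are amygdala minus hypothalamus, so that a negative value is a gene higher in hypothalamus. Counts assigned to genes ranged from 1578896 to 3556545 per amygdala library and from 1632461 to 3001249 per hypothalamus library. In such bulk tissue, fewer cells of a type and less RNA per cell cannot be told apart.

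The amygdala is built from parts of different origin. Its basolateral nuclei hold glutamate neurons related to those of the cerebral cortex, and its central and medial nuclei hold GABA neurons related to those of the striatum. It is best known for learned fear, reward value and, in alcohol research, the negative mood of withdrawal. The hypothalamus is built from many small nuclei whose neurons release peptides that control the pituitary, feeding, body water, sleep and stress. Peptide genes there are transcribed at very high rates by small groups of cells.

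The regions differed over much of the transcriptome, mostly by small amounts. Of 12740 genes tested, 7401 (58.1%) differed at an adjusted p under 0.05 by edgeR's quasi-likelihood test with mouse as a block, 3707 (29.1%) higher in amygdala and 3694 (29.0%) higher in hypothalamus. At least 2-fold differences were found for 772 genes (6.06%), with 412 (3.23%) higher in amygdala and 360 (2.83%) higher in hypothalamus. The direction was the same in all 17 mice for 331 of the 412 and for 240 of the 360. The ranges of the 17 amygdala and the 17 hypothalamus libraries did not overlap for 629 genes (4.94%), 419 (3.29%) higher in amygdala and 210 (1.65%) higher in hypothalamus. This even split of calls depended on the scaling: with library totals in place of TMM factors, 2509 genes were called higher in amygdala and 5442 higher in hypothalamus, and the median log2 fold change of all genes moved from -0.01 to -0.11. The lists below kept the sign of their median under that scaling, except the oligodendrocyte precursor list, as given beside it. Counts called in each list stand beside the 29.1% of all genes tested higher in amygdala and the 29.0% higher in hypothalamus. Genes said below not to overlap stand beside the 3.29% and 1.65% of all genes tested given above. For genes picked for large differences or small adjusted p-values, a lack of overlap was likely from the start.

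**Figure D1:**
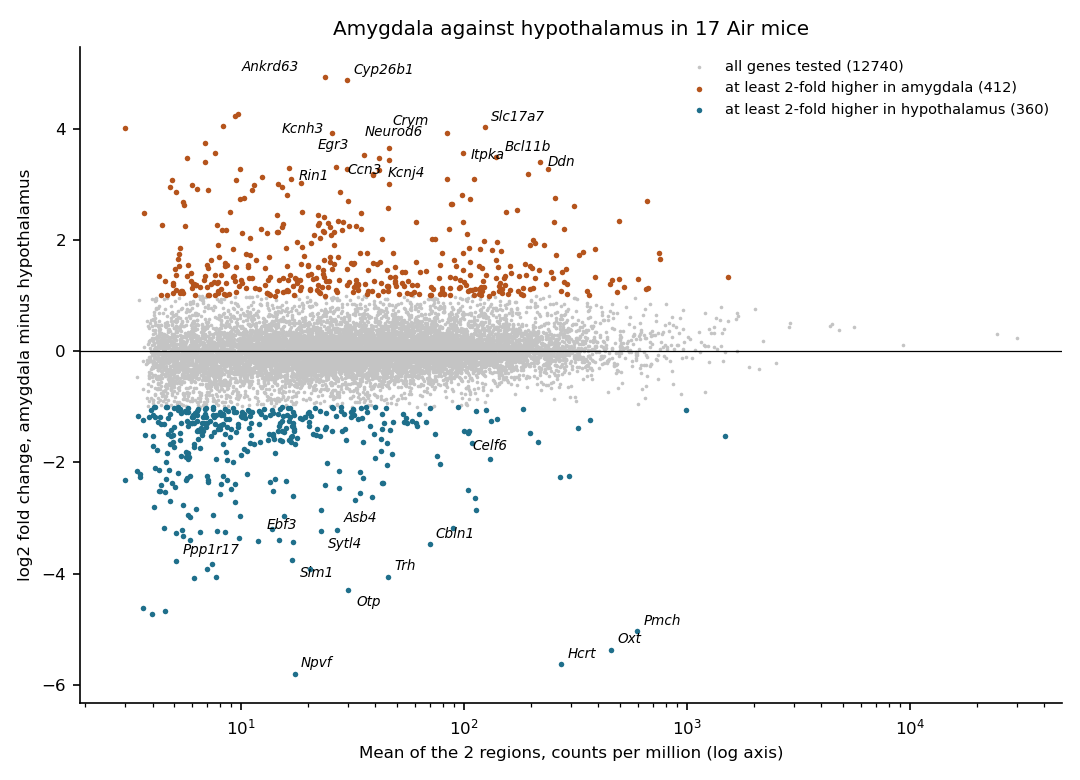
Each point is 1 of the 12740 genes tested, with its mean level over both regions in CPM on a log axis against its log2 fold change, amygdala minus hypothalamus. Colored points are the 412 genes at least 2-fold higher in amygdala and the 360 at least 2-fold higher in hypothalamus, with the genes of the naming rule labelled. The lowest points, Npvf, Hcrt, Oxt and Pmch, lie between -5.80 and -5.04.

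The 4 largest differences toward hypothalamus among the named genes were in neuropeptide precursors, Npvf, Hcrt, Oxt and Pmch. Npvf encodes RFamide-related peptides made by dorsomedial neurons, and its level was 0 to 1.81 CPM (median 0.356) in amygdala and 1.75 to 79.1 CPM (median 32.5) in hypothalamus (log2 fold change -5.80, SE 0.24, adjusted p = 4.14e-15). Hcrt, the precursor of the orexins that sustain wakefulness, was at 0.934 to 32.2 CPM (median 7.13) in amygdala and 48.9 to 1247 CPM (median 455) in hypothalamus (log2 fold change -5.63, SE 0.35, adjusted p = 3.07e-12). Pmch, the precursor of melanin-concentrating hormone, which lateral hypothalamic neurons release to promote feeding and sleep, was at 0.934 to 155 CPM (median 37.8) in amygdala and 112 to 2018 CPM (median 1221) in hypothalamus (log2 fold change -5.04, SE 0.36, adjusted p = 3.24e-11). All 3 were higher in hypothalamus in 17 of 17 mice, which the rule for naming them required. Only the Hcrt libraries of the regions did not overlap. The Pmch ranges overlapped because amygdala of mouse 7 reached 155 CPM, above the 112 CPM in hypothalamus of mouse 6, and Npvf was at 1.75 CPM in hypothalamus of that same mouse 6.

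Oxt, which encodes oxytocin, a hormone of birth, lactation and social behavior, was at 1.09 to 61.0 CPM (median 12.6) in amygdala and 16.0 to 2171 CPM (median 683) in hypothalamus (log2 fold change -5.37, SE 0.23, adjusted p = 5.67e-15). Its lowest hypothalamus library, from mouse 15, lay inside the amygdala range and all other hypothalamus libraries lay above it. Avp, the antidiuretic hormone vasopressin and the chromosomal neighbor of Oxt, was at 1.63 to 37.1 CPM (median 7.99) in amygdala and 1.90 to 597 CPM (median 90.1) in hypothalamus (log2 fold change -3.17, SE 0.31, adjusted p = 5.47e-09), higher in hypothalamus in 16 of 17 mice. Trh, the thyrotropin-releasing hormone that drives the thyroid axis, was more even between animals, at 2.90 to 9.72 CPM (median 4.68) in amygdala and 39.2 to 121 CPM (median 90.5) in hypothalamus (log2 fold change -4.06, SE 0.11, adjusted p = 5.83e-18), with no overlap. Cartpt, the CART peptide that lowers food intake, was at 18.7 to 59.7 CPM (median 25.2) in amygdala and 60.2 to 315 CPM (median 188) in hypothalamus (log2 fold change -2.86, SE 0.19, adjusted p = 1.32e-11), again with no overlap.

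Promoters of 5 of these peptide genes are shown because the genes differed strongly between the regions and hold known motifs before their starts. The sequences are from RefSeq on GRCm38.p6, run 5′ to 3′ on the strand of the gene and end at the last base before its start. Capitals mark the TATA box letters TATAAA in Npvf, Hcrt, Pmch and Vip, the cAMP response element letters TGACGTCA in Cartpt, and in Oxt the letters TGACCTTGA, the reverse complement of TCAAGGTCA, an extended nuclear receptor half-site. Vip, a peptide gene higher in amygdala, is given for contrast.
Npvf, chr6:50654446-50654525, minus strand: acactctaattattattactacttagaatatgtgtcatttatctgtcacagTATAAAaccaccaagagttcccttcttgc
Hcrt, chr11:100762932-100763011, minus strand: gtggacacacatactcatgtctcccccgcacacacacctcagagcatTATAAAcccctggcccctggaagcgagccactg
Pmch, chr10:88090992-88091071, plus strand: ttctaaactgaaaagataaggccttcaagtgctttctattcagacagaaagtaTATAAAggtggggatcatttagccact
Oxt, chr2:130575989-130576168, plus strand: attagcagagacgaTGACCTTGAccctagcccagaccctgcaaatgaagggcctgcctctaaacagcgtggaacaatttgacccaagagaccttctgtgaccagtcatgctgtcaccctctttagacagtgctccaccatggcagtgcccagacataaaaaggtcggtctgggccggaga
Cartpt, chr13:99900684-99900813, minus strand: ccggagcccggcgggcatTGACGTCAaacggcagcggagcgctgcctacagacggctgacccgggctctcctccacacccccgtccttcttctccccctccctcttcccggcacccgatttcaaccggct
Vip, chr10:5639138-5639217, plus strand: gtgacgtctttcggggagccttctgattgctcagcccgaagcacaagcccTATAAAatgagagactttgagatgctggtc

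Read in the 250 bases before the start on both strands, TATAAA was present for 14.3% of 27025 genes with a promoter in the table. It was present for 5 of the 10 peptide genes at least 2-fold higher in hypothalamus, namely Adcyap1, Hcrt, Npvf, Pmch and Pomc, and for 1 (Vip) of the 5 with a promoter among the 6 at least 2-fold higher in amygdala. TGACGTCA was present for 1.77% of all genes and, among the 10, in Cartpt. TCAAGGTCA was present for 0.422% of all genes and, among the 10, in Oxt. A match says only that these letters are in the window.

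Neuropeptide precursors as a group went both ways. Of 49 on the list, 30 passed the filter on low counts, 13 were higher in amygdala and 15 in hypothalamus, and the median log2 fold change was -0.21, against -0.01 for all genes tested. By at least 2-fold, 10 were higher in hypothalamus: Oxt, Avp, Trh, Cartpt, Pmch, Hcrt and Npvf above, with Pomc, Gal and Adcyap1. Gal, galanin, was at 2.08 to 19.0 CPM (median 7.56) in amygdala and 10.4 to 109 CPM (median 37.2) in hypothalamus (log2 fold change -2.46, SE 0.22, adjusted p = 1.65e-09). Adcyap1, the stress-related peptide PACAP, was at 6.81 to 29.6 CPM (median 9.81) in amygdala and 23.4 to 178 CPM (median 50.5) in hypothalamus (log2 fold change -2.28, SE 0.19, adjusted p = 3.01e-10). Pomc, the precursor of melanocortins and beta-endorphin in the arcuate nucleus, rested on few reads in most animals: it was at 5.24 to 215 CPM (median 10.3) in hypothalamus, with 215 CPM in mouse 27 and at most 21.1 CPM in any other, and at 1.87 to 9.32 CPM (median 4.8) in amygdala (log2 fold change -1.48, SE 0.31, adjusted p = 0.000232).

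**Figure D2:**
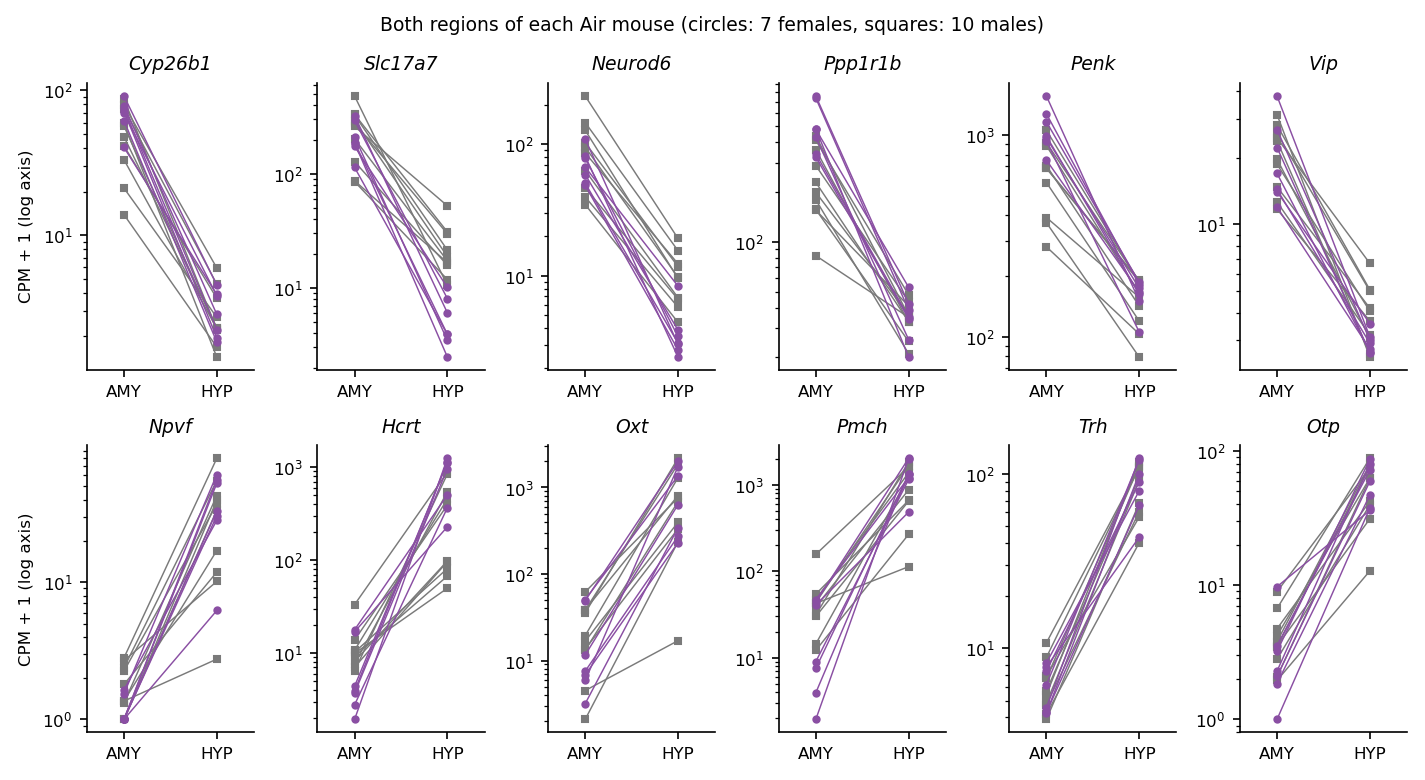
Levels of 12 genes in amygdala (AMY) and hypothalamus (HYP) of each Air mouse, as CPM + 1 on a log axis, with a line joining both libraries of an animal (circles, 7 females, and squares, 10 males). Lines fall for the upper genes and climb for the lower ones in every mouse, and the hypothalamus values of Oxt, Hcrt and Npvf spread over more than a factor of 10. The naming rule required the same direction in every mouse for all of these genes but Ppp1r1b, Penk and Vip.

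The 6 peptide precursors at least 2-fold higher in amygdala were Vip, Penk, Cck, Npy, Nts and Tac2. Penk, proenkephalin, a marker of striatal-type and central amygdala GABA neurons, was the most abundant of them at 279 to 1561 CPM (median 885) in amygdala and 78.3 to 189.7 CPM (median 163) in hypothalamus (log2 fold change 2.33, SE 0.11, adjusted p = 4.18e-14), with no overlap. Vip, vasoactive intestinal peptide, which marks a class of cortical interneurons and is also the peptide of the suprachiasmatic clock, was at 10.7 to 36.9 CPM (median 18.7) in amygdala and only 1.52 to 5.67 CPM (median 2.11) in hypothalamus (log2 fold change 2.89, SE 0.15, adjusted p = 1.09e-13). Cck, cholecystokinin, was at 185 to 708 CPM (median 398) in amygdala and 10.4 to 488 CPM (median 60.3) in hypothalamus (log2 fold change 2.32, SE 0.26, adjusted p = 4.42e-08). The 488 CPM was in mouse 12, whose amygdala was lower at 402 CPM.

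Npy, neuropeptide Y, is made by amygdala interneurons and by hunger neurons of the arcuate nucleus. It was at 15.5 to 45.0 CPM (median 35.3) in amygdala and 2.32 to 50.8 CPM (median 5.21) in hypothalamus (log2 fold change 2.09, SE 0.22, adjusted p = 2.00e-08), and its highest hypothalamus library was again mouse 27, where Agrp, the partner peptide of those hunger neurons, was at 25.6 CPM and in no other hypothalamus library above 3.48 CPM. Nts, neurotensin, was at 28.6 to 100.1 CPM (median 70.5) in amygdala and 9.12 to 54.5 CPM (median 23.5) in hypothalamus (log2 fold change 1.33, SE 0.20, adjusted p = 5.08e-06), with mice 10 and 14 the other way. Tac2, neurokinin B, was at 5.40 to 73.5 CPM (median 33.0) in amygdala and 4.30 to 33.2 CPM (median 13.2) in hypothalamus (log2 fold change 1.27, SE 0.19, adjusted p = 4.71e-06), with mice 10 and 27 the other way. Crh, the corticotropin-releasing factor of central amygdala and paraventricular neurons, differed little, at 9.65 to 28.6 CPM (median 14.5) in amygdala and 2.66 to 32.0 CPM (median 10.3) in hypothalamus (log2 fold change 0.49, SE 0.18, adjusted p = 0.0249), higher in amygdala in 12 of 17 mice.

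Of 38 neuropeptide receptors tested on a list of 56, 13 were higher in amygdala and 15 in hypothalamus, 2 and 6 of them by at least 2-fold, with a median of -0.01. The shares called were near those over all genes, 29.1% and 29.0%. Cckar, the CCK-A receptor, was at 0 to 3.60 CPM (median 0.887) in amygdala and 4.56 to 19.6 CPM (median 15.3) in hypothalamus (log2 fold change -3.24, SE 0.20, adjusted p = 2.48e-12), opposite to its ligand gene Cck. Calcr, the calcitonin receptor, was at 0.360 to 9.28 CPM (median 3.18) in amygdala and 14.5 to 47.5 CPM (median 28.7) in hypothalamus (log2 fold change -2.97, SE 0.19, adjusted p = 3.96e-12), and these ranges did not overlap for either receptor. Npffr1, which binds the peptides of Npvf, was at 6.16 to 16.8 CPM (median 11.5) in amygdala and 10.6 to 45.1 CPM (median 34.5) in hypothalamus (log2 fold change -1.52, SE 0.12, adjusted p = 1.64e-10). Galr1, a galanin receptor, was at 1.91 to 9.72 CPM (median 3.80) in amygdala and 8.32 to 18.8 CPM (median 12.2) in hypothalamus (log2 fold change -1.49, SE 0.15, adjusted p = 1.73e-08), and so lay on the side of its ligand.

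Toward amygdala, Vipr1, a receptor for Vip, was at 2.58 to 21.0 CPM (median 8.57) in amygdala and 0.346 to 3.93 CPM (median 1.30) in hypothalamus (log2 fold change 2.63, SE 0.19, adjusted p = 5.34e-11). Oxtr, the oxytocin receptor, was at 7.10 to 19.6 CPM (median 14.1) in amygdala and 2.66 to 11.1 CPM (median 6.95) in hypothalamus (log2 fold change 0.97, SE 0.14, adjusted p = 2.45e-06), higher in amygdala in 16 of 17 mice and so opposite to Oxt. The orexin receptors followed Hcrt with far smaller differences, a log2 fold change of -0.75 for Hcrtr1 and -1.0 for Hcrtr2 (adjusted p = 0.000376 and 8.83e-05). Mchr1, the receptor for the Pmch peptide, lay on the other side at 0.45 (adjusted p = 0.000276).

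Transcription factors known from the development of each region differed between them as well. Of 41 hypothalamic factors listed, only 20 passed the filter, 13 higher in hypothalamus and 5 in amygdala, with a median of -1.24. Otp, required for oxytocin, vasopressin and other neuroendocrine neurons, was at 0 to 8.75 CPM (median 2.48) in amygdala and 11.8 to 87.4 CPM (median 61.6) in hypothalamus (log2 fold change -4.29, SE 0.18, adjusted p = 5.96e-15). Sim1, which acts in the same lineage, was at 0 to 12.4 CPM (median 1.27) in amygdala and 13.6 to 48.1 CPM (median 34.0) in hypothalamus (log2 fold change -3.76, SE 0.27, adjusted p = 3.27e-11). Onecut3 was at 0 to 1.10 CPM (median 0) in amygdala and 2.28 to 15.1 CPM (median 8.77) in hypothalamus (log2 fold change -4.67, SE 0.27, adjusted p = 6.08e-13). The regions did not overlap for any of Otp, Sim1 and Onecut3. Nkx2-1, the factor that specifies the ventral hypothalamus, overlapped widely, at 3.27 to 14.9 CPM (median 6.79) in amygdala and 2.32 to 65.8 CPM (median 14.3) in hypothalamus (log2 fold change -0.95, SE 0.31, adjusted p = 0.0114), and was higher in hypothalamus in 9 of 17 mice. Among the factors of this list higher in amygdala were Lhx6, Lhx8, Dlx5 and Dlx6, which also act in GABA and cholinergic neurons of the telencephalon. Lhx6 was at 32.2 to 83.5 CPM (median 45.8) in amygdala and 2.32 to 20.1 CPM (median 9.16) in hypothalamus (log2 fold change 2.32, SE 0.17, adjusted p = 4.07e-11).

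Telencephalic factors lay on the amygdala side: of 33 tested, 27 were higher in amygdala, 21 of them by at least 2-fold, and 2 (Rorb and Cux1) were higher in hypothalamus, with a median of 1.47. Neurod6, a factor of cortical-type glutamate neurons, was at 33.9 to 232 CPM (median 77.6) in amygdala and 1.41 to 18.3 CPM (median 5.64) in hypothalamus (log2 fold change 3.65, SE 0.13, adjusted p = 1.16e-15). Bcl11b, which is known from striatal and deep cortical neurons, was at 143 to 359.6 CPM (median 262) in amygdala and 9.43 to 33.6 CPM (median 21.7) in hypothalamus (log2 fold change 3.49, SE 0.13, adjusted p = 1.75e-15). Tbr1, another cortical glutamate factor, was at 30.2 to 79.7 CPM (median 49.6) in amygdala and 2.01 to 18.3 CPM (median 5.14) in hypothalamus (log2 fold change 2.87, SE 0.17, adjusted p = 1.57e-12). None of these 3 overlapped.

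Pallial excitatory genes, known from cortical-type glutamate neurons, lay on the amygdala side. Of 27 tested, 26 were higher in amygdala and 22 by at least 2-fold, with a median of 2.34. Slc17a7, which loads glutamate into vesicles in cortical-type neurons, was at 84.5 to 481 CPM (median 211) in amygdala and 1.47 to 51.4 CPM (median 10.8) in hypothalamus (log2 fold change 4.03, SE 0.23, adjusted p = 7.49e-13). Its mean in prefrontal cortex of the Air mice was 539 CPM, for orientation and with no test. Nrgn, a calmodulin-binding protein of dendritic spines, was at 630.4 to 1585 CPM (median 1161) in amygdala and 105 to 292 CPM (median 168) in hypothalamus (log2 fold change 2.70, SE 0.12, adjusted p = 1.98e-14). Itpka, a kinase of spines, was at 80.7 to 328 CPM (median 165) in amygdala and 6.22 to 26.0 CPM (median 14.7) in hypothalamus (log2 fold change 3.57, SE 0.15, adjusted p = 5.96e-15). Ddn, the dendritic protein dendrin, was at 169.9 to 528 CPM (median 406) in amygdala and 16.9 to 78.3 CPM (median 34.0) in hypothalamus (log2 fold change 3.40, SE 0.17, adjusted p = 5.36e-14). The 17 amygdala libraries lay above all 17 hypothalamus libraries for each of these 4 genes.

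The striatal and central amygdala list, genes of GABA neurons with dopamine receptors and DARPP-32, had 22 of 23 tested genes higher in amygdala, 15 by at least 2-fold, with a median of 1.33. Cyp26b1, an enzyme that degrades retinoic acid, had the second largest difference of the named amygdala genes, at 12.9 to 90.4 CPM (median 60.8) in amygdala and 0.436 to 4.94 CPM (median 1.30) in hypothalamus (log2 fold change 4.87, SE 0.14, adjusted p = 8.39e-18). Its mean was 4.40 CPM in prefrontal cortex, which had no test. Ppp1r1b, which encodes DARPP-32, was at 81.4 to 757 CPM (median 338) in amygdala and 19.1 to 52.1 CPM (median 34.0) in hypothalamus (log2 fold change 3.19, SE 0.17, adjusted p = 2.40e-13). Drd1, the D1 dopamine receptor, was at 17.6 to 164 CPM (median 67.9) in amygdala and 3.69 to 15.3 CPM (median 7.43) in hypothalamus (log2 fold change 3.18, SE 0.17, adjusted p = 3.06e-13). Prkcd, which marks a class of central amygdala neurons and also thalamic neurons, was the gene of this list that did not pass (log2 fold change 0.41, SE 0.34, adjusted p = 0.311): it was at 11.4 to 40.7 CPM (median 25.1) in amygdala and 6.46 to 177 CPM (median 9.70) in hypothalamus, with 177 CPM in hypothalamus of mouse 12. With DESeq2, 23 of 23 genes of the list were called.

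**Figure D3:**
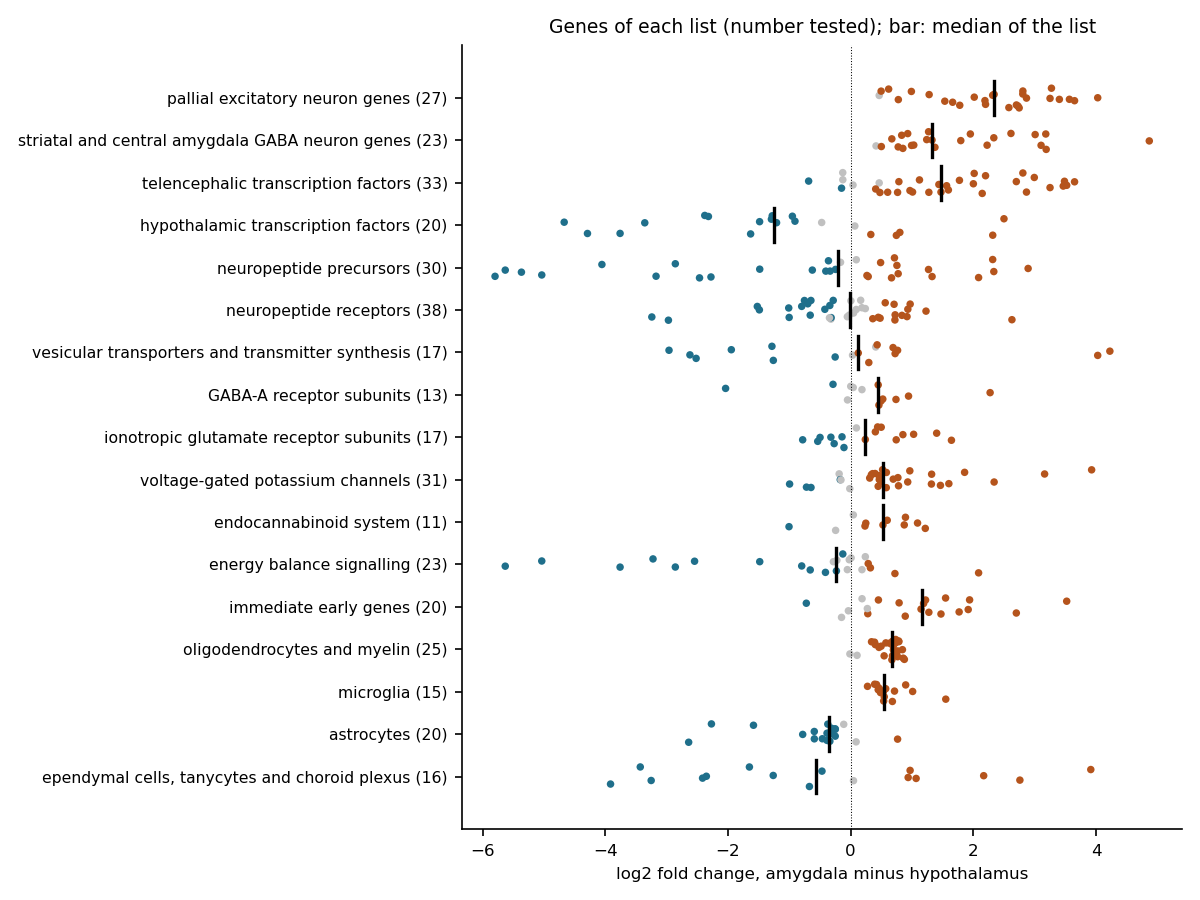
Each point is 1 tested gene of a list, placed by its log2 fold change, amygdala minus hypothalamus (orange, higher in amygdala, blue, higher in hypothalamus, grey, adjusted p of 0.05 or more), with a black bar at the median of the list and the number of genes tested in brackets. Pallial, striatal and telencephalic lists lie to the right with medians of 2.34, 1.33 and 1.47, hypothalamic transcription factors to the left at -1.24, and neuropeptide precursors span both sides.

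Other genes among the largest differences toward amygdala were of mixed function. Ankrd63, which has ankyrin repeats, had the largest fitted difference of them, at 21.8 to 68.7 CPM (median 47.4) in amygdala and 0 to 3.75 CPM (median 1.14) in hypothalamus (log2 fold change 4.93, SE 0.18, adjusted p = 1.27e-15). Crym, a thyroid hormone-binding protein, was at 46.0 to 438 CPM (median 110.5) in amygdala and 2.39 to 21.1 CPM (median 9.16) in hypothalamus (log2 fold change 3.92, SE 0.18, adjusted p = 1.40e-14). Ccn3, a secreted matrix-associated protein, was at 23.1 to 189.7 CPM (median 65.9) in amygdala and 2.08 to 11.3 CPM (median 7.22) in hypothalamus (log2 fold change 3.44, SE 0.20, adjusted p = 1.09e-12). Rin1, a Ras effector known for its part in amygdala fear memory, was at 26.1 to 76.1 CPM (median 50.3) in amygdala and 1.16 to 8.29 CPM (median 4.6) in hypothalamus (log2 fold change 3.31, SE 0.12, adjusted p = 8.29e-16).

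On the hypothalamus side, Cbln1, a secreted organizer of synapses, was at 4.15 to 29.5 CPM (median 10.1) in amygdala and 97.5 to 162 CPM (median 132) in hypothalamus (log2 fold change -3.47, SE 0.13, adjusted p = 1.35e-15). Ebf3, a transcription factor, was at 0.884 to 7.78 CPM (median 1.91) in amygdala and 10.9 to 80.6 CPM (median 21.7) in hypothalamus (log2 fold change -3.39, SE 0.22, adjusted p = 7.28e-12). Sytl4, which takes part in the release of dense-core vesicles, was at 0 to 12.0 CPM (median 3.74) in amygdala and 17.5 to 68.0 CPM (median 41.3) in hypothalamus (log2 fold change -3.24, SE 0.17, adjusted p = 1.62e-13). Asb4, known from arcuate neurons, was at 2.08 to 9.72 CPM (median 4.86) in amygdala and 19.4 to 86.1 CPM (median 42.6) in hypothalamus (log2 fold change -3.22, SE 0.16, adjusted p = 6.18e-14). Ppp1r17, an inhibitor of protein phosphatases, was at 0 to 5.35 CPM (median 2.17) in amygdala and 5.89 to 49.4 CPM (median 20.4) in hypothalamus (log2 fold change -3.42, SE 0.26, adjusted p = 9.04e-11). Celf6, an RNA-binding protein, differed less but evenly, at 38.6 to 63.6 CPM (median 53.0) in amygdala and 95.4 to 178 CPM (median 153) in hypothalamus (log2 fold change -1.44, SE 0.06, adjusted p = 2.51e-15). None of these 6 overlapped between the regions, beside 1.65% of all genes tested that were higher in hypothalamus without overlap. They were picked for large differences or small adjusted p-values, which made this likely.

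The vesicular glutamate transporters were crossed: Slc17a7 was higher in amygdala as above, and Slc17a6, the form of hypothalamus and thalamus, was at 24.2 to 99.6 CPM (median 45.8) in amygdala and 106 to 412 CPM (median 185) in hypothalamus (log2 fold change -1.95, SE 0.21, adjusted p = 2.38e-08). Gad2, a GABA-synthesizing enzyme, was at 522 to 1001 CPM (median 794) in amygdala and 325 to 1032 CPM (median 783) in hypothalamus (log2 fold change 0.03, SE 0.07, adjusted p = 0.715). Gad1, the other GABA-synthesizing enzyme, had a log2 fold change of 0.73 (adjusted p = 2.69e-07). Of the 17 genes tested on the transmitter list, 8 were higher in amygdala and 7 in hypothalamus, with a median of 0.12. Over all genes tested these shares were 29.1% and 29.0%.

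Of the monoamine genes on that list, Th, Ddc, Hdc and Slc18a2 were higher in hypothalamus, and Tph2, Dbh, Slc6a3 and Slc6a4 did not pass the filter on low counts. Th, tyrosine hydroxylase, the first enzyme of dopamine synthesis, was at 2.86 to 17.4 CPM (median 10.2) in amygdala and 28.4 to 103 CPM (median 65.6) in hypothalamus (log2 fold change -2.62, SE 0.16, adjusted p = 3.34e-12). Hdc, which makes histamine in tuberomammillary neurons, was at 0.442 to 5.03 CPM (median 1.78) in amygdala and 2.32 to 72.2 CPM (median 12.8) in hypothalamus (log2 fold change -2.96, SE 0.27, adjusted p = 1.88e-09), with its highest library from mouse 15. Slc18a2, which loads monoamines into vesicles, was at 1.43 to 7.97 CPM (median 3.80) in amygdala and 5.67 to 38.1 CPM (median 22.4) in hypothalamus (log2 fold change -2.52, SE 0.18, adjusted p = 2.55e-11). Chat, the enzyme of acetylcholine synthesis, lay on the other side at 1.27 to 34.4 CPM (median 17) in amygdala and 0 to 1.52 CPM (median 1.04) in hypothalamus (log2 fold change 4.23, SE 0.26, adjusted p = 3.10e-12), and its libraries overlapped only because amygdala of mouse 15 was at 1.27 CPM.

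For GABA-A receptor subunits, the main targets of fast inhibition, 7 of 13 tested were higher in amygdala and 2 in hypothalamus, with a median of 0.45. Over all genes tested, 29.1% were higher in amygdala and 29.0% in hypothalamus. A list of general neuronal genes gave 10 and 3 of 14, with a median of 0.42. Gabrd, a subunit of receptors outside synapses, was at 11.4 to 73.8 CPM (median 32.4) in amygdala and 0.832 to 62.8 CPM (median 3.43) in hypothalamus (log2 fold change 2.27, SE 0.36, adjusted p = 8.75e-06). Gabrq, the theta subunit, was at 5.81 to 28.7 CPM (median 18.1) in amygdala and 22.3 to 109 CPM (median 69.8) in hypothalamus (log2 fold change -2.04, SE 0.10, adjusted p = 2.18e-14), higher in hypothalamus in 17 of 17 mice. Of 17 ionotropic glutamate receptor subunits, 9 were higher in amygdala and 7 in hypothalamus, with a median of 0.24. Grin2a, an NMDA receptor subunit, was at 133 to 357 CPM (median 195) in amygdala and 47.8 to 125 CPM (median 64.8) in hypothalamus (log2 fold change 1.64, SE 0.09, adjusted p = 5.41e-13), and Grin2d, another, went the other way (log2 fold change -0.78, SE 0.10, adjusted p = 6.73e-07).

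Voltage-gated potassium channels, which set how neurons fire, had 24 of 31 tested genes higher in amygdala and 4 higher in hypothalamus, with a median of 0.52. Over all genes tested these shares were 29.1% and 29.0%. The general neuronal genes had a median of 0.42, and whether the channels differed beyond such genes was not tested. Kcnh3 was at 25.6 to 61.7 CPM (median 49.0) in amygdala and 0.380 to 7.82 CPM (median 2.90) in hypothalamus (log2 fold change 3.93, SE 0.17, adjusted p = 5.67e-15). Kcng1 was at 33.3 to 141 CPM (median 62.0) in amygdala and 1.74 to 15.6 CPM (median 6.74) in hypothalamus (log2 fold change 3.16, SE 0.19, adjusted p = 2.09e-12). Kcnj4, an inward rectifier of cortical and striatal neurons outside this list, was at 39.4 to 113 CPM (median 71.9) in amygdala and 0.580 to 13.3 CPM (median 6.69) in hypothalamus (log2 fold change 3.47, SE 0.15, adjusted p = 8.51e-15). These 3 channel genes did not overlap. Toward hypothalamus, Kcnip1, an accessory subunit, had the largest difference of the list (log2 fold change -0.99, SE 0.06, adjusted p = 4.07e-13).

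Immediate early genes, which neurons switch on within minutes of activity, were higher in amygdala for 15 of 20 tested, 11 by at least 2-fold, with a median of 1.17. Egr3 was at 35.0 to 88.8 CPM (median 65.8) in amygdala and 1.16 to 11.3 CPM (median 4.22) in hypothalamus (log2 fold change 3.52, SE 0.16, adjusted p = 1.55e-14). Arc, whose protein acts at synapses, was at 15.5 to 46.7 CPM (median 29.3) in amygdala and 3.35 to 11.8 CPM (median 8.57) in hypothalamus (log2 fold change 1.94, SE 0.12, adjusted p = 1.44e-12). Fos, a common marker of recent activity, was the only tested gene of the list called higher in hypothalamus, at 13.6 to 37.9 CPM (median 22.8) in amygdala and 10.4 to 69.0 CPM (median 39.4) in hypothalamus (log2 fold change -0.72, SE 0.12, adjusted p = 2.12e-05), in 15 of 17 mice. The other 4 tested, Jun, Ier2, Btg2 and Nptx2, did not pass.

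Systems studied for alcohol also differed between the regions. The counts of this and the next paragraph stand beside 29.1% of all genes tested higher in amygdala and 29.0% higher in hypothalamus. The opioid list had 5 of 11 genes higher in amygdala and 6 in hypothalamus, with a median of -0.15. Beside Penk, Pdyn, prodynorphin, was at 42.5 to 238 CPM (median 121) in amygdala and 43.9 to 113 CPM (median 76.0) in hypothalamus (log2 fold change 0.67, SE 0.13, adjusted p = 9.94e-05). The mu, kappa and nociceptin receptor genes Oprm1, Oprk1 and Oprl1 were higher in hypothalamus, with log2 fold changes of -0.42, -0.28 and -0.65 (adjusted p = 0.000832, 0.00349 and 2.23e-09), and the delta receptor Oprd1 was higher in amygdala (log2 fold change 1.23, SE 0.16, adjusted p = 5.22e-07).

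The endocannabinoid list had 8 of 11 genes higher in amygdala and 1 (Plcb4) in hypothalamus, with a median of 0.53. Cnr1, the CB1 receptor, was at 115 to 232 CPM (median 158) in amygdala and 48.3 to 96.4 CPM (median 74.7) in hypothalamus (log2 fold change 1.09, SE 0.09, adjusted p = 3.66e-10), with no overlap. Genes of corticotropin-releasing factor and glucocorticoid signalling were split, 7 of 14 higher in amygdala and 5 in hypothalamus, with a median of 0.13. Crhr1, the main receptor for corticotropin-releasing factor, was at 10.4 to 21.6 CPM (median 18.1) in amygdala and 4.00 to 18.4 CPM (median 9.85) in hypothalamus (log2 fold change 0.84, SE 0.15, adjusted p = 3.28e-05). Fkbp5, a glucocorticoid-induced chaperone, had 0.61 (adjusted p = 4.51e-08). Of 23 energy balance genes, 12 were higher in hypothalamus and 4 in amygdala, with a median of -0.23, and Irs4, an insulin receptor substrate, was at 4.46 to 19.4 CPM (median 8.59) in amygdala and 24.0 to 92 CPM (median 58.3) in hypothalamus (log2 fold change -2.54, SE 0.13, adjusted p = 1.46e-13).

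Oligodendrocyte and myelin genes were higher in amygdala for 23 of 25 tested, with a median of 0.68. Mobp, a myelin-associated protein of oligodendrocytes, was at 64.9 to 344 CPM (median 147) in amygdala and 62.1 to 127 CPM (median 80.9) in hypothalamus (log2 fold change 0.86, SE 0.13, adjusted p = 7.45e-06). Oligodendrocyte precursors had 4 of 11 genes higher in amygdala and 0 in hypothalamus with a median of 0.04, a share near the 29.1% of all genes higher in amygdala, and with library totals 2 and 2 with a median of -0.07. Microglial genes were higher in amygdala for 15 of 15 tested, with a median of 0.54, and Cx3cr1, the fractalkine receptor, was at 45.3 to 76.4 CPM (median 62.2) in amygdala and 29.1 to 43.9 CPM (median 38.2) in hypothalamus (log2 fold change 0.68, SE 0.05, adjusted p = 1.88e-10).

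Astrocyte genes lay the other way, 17 of 20 higher in hypothalamus and 1 in amygdala, with a median of -0.36. The exception, Slc1a2, is the main glutamate uptake transporter of the forebrain, and it was at 2071 to 2953 CPM (median 2486) in amygdala and 1377 to 1648 CPM (median 1482) in hypothalamus (log2 fold change 0.77, SE 0.04, adjusted p = 1.09e-13). Mlc1, a membrane protein of astrocyte endfeet, was at 176 to 247 CPM (median 213) in amygdala and 283 to 369 CPM (median 322) in hypothalamus (log2 fold change -0.59, SE 0.04, adjusted p = 2.78e-11). Itih3, a hyaluronan-binding protein, was at 11.7 to 52.0 CPM (median 29.6) in amygdala and 127 to 265 CPM (median 188) in hypothalamus (log2 fold change -2.64, SE 0.16, adjusted p = 1.09e-12). The ranges did not overlap for these 3 genes. How far the glial composition of the punches took part in the neuronal differences was not tested.

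Genes known from neighboring tissue were high in some libraries. The summed level of the thalamus and habenula list ranged from 879 to 3324 CPM in hypothalamus, highest in mouse 12, where Tcf7l2, a thalamic transcription factor, was at 715 CPM. Tcf7l2 exceeded 150 CPM in hypothalamus of 5 mice (6, 12, 14, 29 and 40). The summed ependymal and choroid plexus list ranged from 226 to 5492 CPM in amygdala, again highest in mouse 12, where Ttr, which choroid plexus makes, was at 4541 CPM. Of that list, 9 of 16 genes were higher in hypothalamus and 6 in amygdala. Alb, a liver gene, exceeded 50 CPM in at least 1 library of mice 26, 29 and 40. Without the 5 mice high in Tcf7l2, 3254 genes were called higher in amygdala and 3283 in hypothalamus, and without the 3 high in Alb, 3287 and 3532. The genes named for the size or the adjusted p of their difference kept their call and direction in both, which their choice from these same data made likely. Other list members did not all do so: without the 5 mice high in Tcf7l2, the striatal list had 23 of 23 genes called in place of 22, and the thalamus and habenula list had 7 genes higher in hypothalamus and 4 in amygdala, with a median of -0.19, in place of 9 and 3 with a median of -0.68. The mice were chosen after their values were seen, and the part of neighboring tissue in the regional differences was not tested.

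The hypothalamus libraries also differed among themselves in genes of separate nuclei. In mouse 6, Oxt was at 2171 CPM, the highest of all, with Hcrt at 48.9 and Pmch at 112 CPM, the lowest of all. In mouse 15, Oxt was at 16.0 CPM, and Hdc at 72.2 and Nkx2-1 at 65.8 CPM were the highest of all. In mouse 27, Pomc was at 215 CPM. Amygdala libraries varied in the same way, with the summed pallial list from 4059 CPM in mouse 7 to 11244 CPM in mouse 15 and the striatal list from 2011 CPM in mouse 12 to 8575 CPM in mouse 29.

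Across the 17 mice, some of these peptides varied together in hypothalamus. Oxt and Avp correlated on the log2(CPM + 1) scale with r = 0.925 (permutation p = 2e-05, adjusted 8e-05 over 8 relations). Their rho was 0.89 (permutation p = 1e-05). Their r was 0.872 without the 2 mice farthest from the median of Oxt, 0.954 in the 10 males and 0.887 in the 7 females. Hcrt and Pmch correlated with r = 0.764 (permutation p = 0.00025, adjusted 0.0005) and rho = 0.777 (permutation p = 0.00043). Their r was 0.691 without the 2 mice farthest from the median of Hcrt, 0.802 in males and 0.494 in females. These pairs were chosen after the values were seen, but the vapor mice gave r = 0.917 for Oxt and Avp (permutation p = 1e-05, the smallest that 100000 permutations can give; rho = 0.94) and 0.797 for Hcrt and Pmch (permutation p = 5e-05, rho = 0.792). The relation of Oxt and Hcrt depended on how it was taken. In the Air mice r was -0.225 (permutation p = 0.402, adjusted 0.46) and rho was -0.578 (permutation p = 0.0166). There r was -0.667 without the 2 mice farthest from the median of Oxt. In the vapor mice r was -0.429 (adjusted permutation p = 0.0923) and rho was -0.573 (permutation p = 0.0151), close to the rho of the Air mice. By sex, r was -0.195 in males and -0.919 in females of the Air mice, and -0.713 and -0.309 in the vapor mice. Slc17a7 and Ppp1r1b in amygdala had r = 0.0771 (adjusted permutation p = 0.768) and rho = 0.0245 in Air mice and r = -0.438 (adjusted permutation p = 0.0923) and rho = -0.251 in vapor mice.

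**Figure D4:**
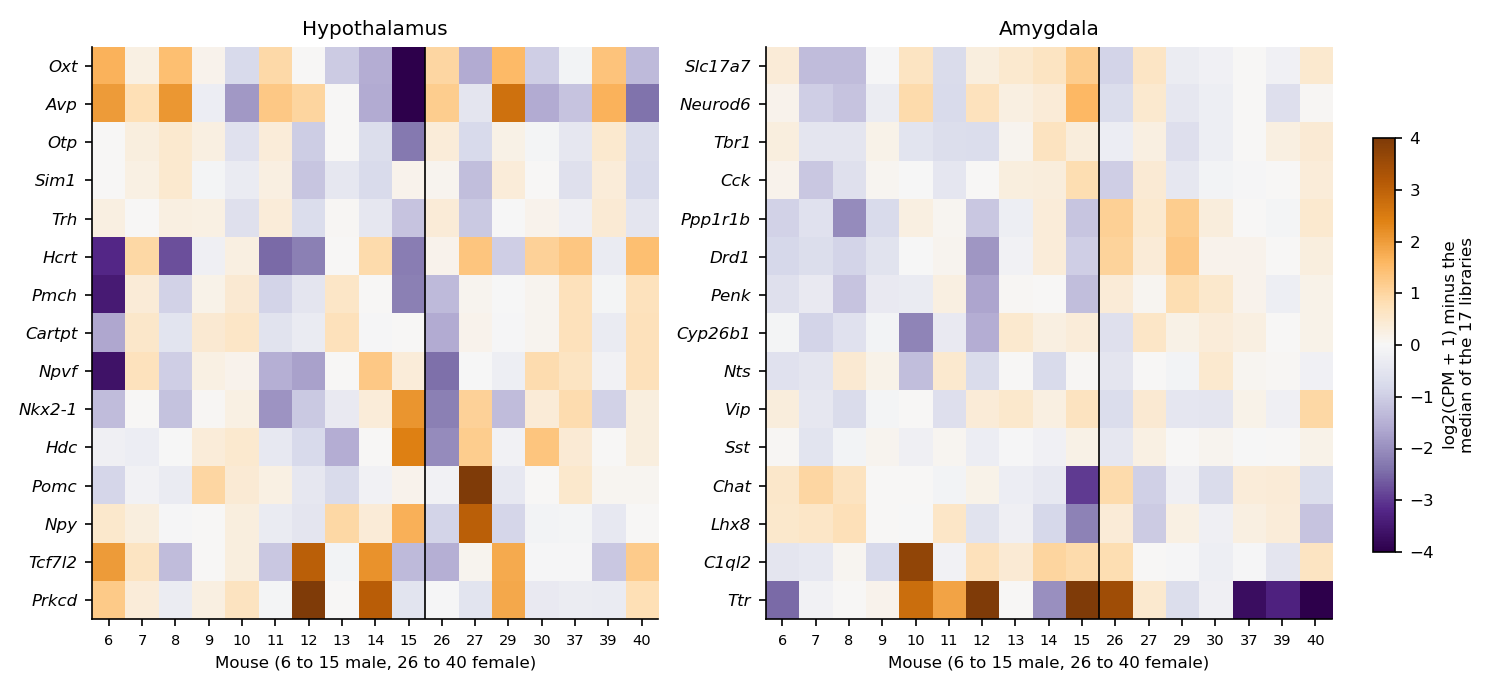
Rows are 15 genes per region and columns the 17 Air mice (6 to 15 male, 26 to 40 female), with color for log2(CPM + 1) minus the median of the 17 libraries. Dark cells mark libraries far from the median, such as Oxt and Avp low in hypothalamus of mouse 15, Pomc and Npy high in mouse 27, Tcf7l2 and Prkcd high in mouse 12, and Ttr spread over the amygdala libraries.

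Whether the sexes differed in the regional contrast was tested with a sex-by-region term, and 3 genes passed (0.0235% of 12740), against 965 at an unadjusted p under 0.05. Arpp21, a calmodulin-regulating protein of striatal and cortical neurons, had a log2 fold change of 2.10 in males and 3.35 in females (difference 1.25, SE 0.21, adjusted p = 0.0475). Its mean in amygdala was 426 ± 142 CPM in males and 701 ± 137 CPM in females (SD, n = 10 and n = 7). Pde10a, a striatal phosphodiesterase, had 0.52 in males and 1.71 in females (difference 1.18, SE 0.21, adjusted p = 0.0475). Itpka had 3.13 in males and 4.45 in females (difference 1.32, SE 0.23, adjusted p = 0.0475), with its means in amygdala close at 178 ± 72.0 and 187 ± 40.0 CPM and those in hypothalamus at 19.2 ± 3.8 and 8.3 ± 1.9 CPM (SD, n = 10 and n = 7). These calls were not stable: DESeq2 called 21 genes, limma voom 0, and 0 to 10 were called when each mouse was left out. Of the 412 amygdala genes of the 2-fold sets, 391 could be tested in both sexes, and of the 360 hypothalamus genes, 288. All of those tested had the same direction in both sexes. The sets were called from these same 17 mice, so a shared direction was likely from the start and is no separate test of sex.

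The vapor mice gave an independent set of animals for the same contrast. In their 36 libraries from 18 mice, 7661 of 12839 genes were called (59.7%), and 885 by at least 2-fold (6.89%). Of the 412 amygdala genes, 408 were tested there and all 408 were called in the same direction, with a median log2 fold change of 1.39 in Air and 1.5 in vapor mice. Of the 360 hypothalamus genes, 340 were tested, 339 had the same direction and 335 were called, with medians of -1.42 and -1.48. Of all 12644 genes tested in both, 89.0% had the same direction. The 5 exceptions were chosen after their values were seen. Calml4 went from -1.14 in Air to 0.19 in vapor mice (adjusted p = 0.605). Lbp went from -1.84 to -0.15 (adjusted p = 0.767) and Col8a2 from -2.09 to -0.50 (adjusted p = 0.236). Apoc1 went from -1.32 to -0.50 (adjusted p = 0.125) and Smo from -1.01 to -0.36 (adjusted p = 0.0519). Lbp and Apoc1 are also known from liver, and Alb exceeded 50 CPM in a library of 10 of the 18 vapor mice, whose part in these exceptions was not tested. Without those 10 mice, 2740 genes were called higher in amygdala and 2833 in hypothalamus. A treatment-by-region term over both sets of mice called 0 of 12848 genes by edgeR (641 at an unadjusted p under 0.05), and 0 by DESeq2.

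**Figure D5:**
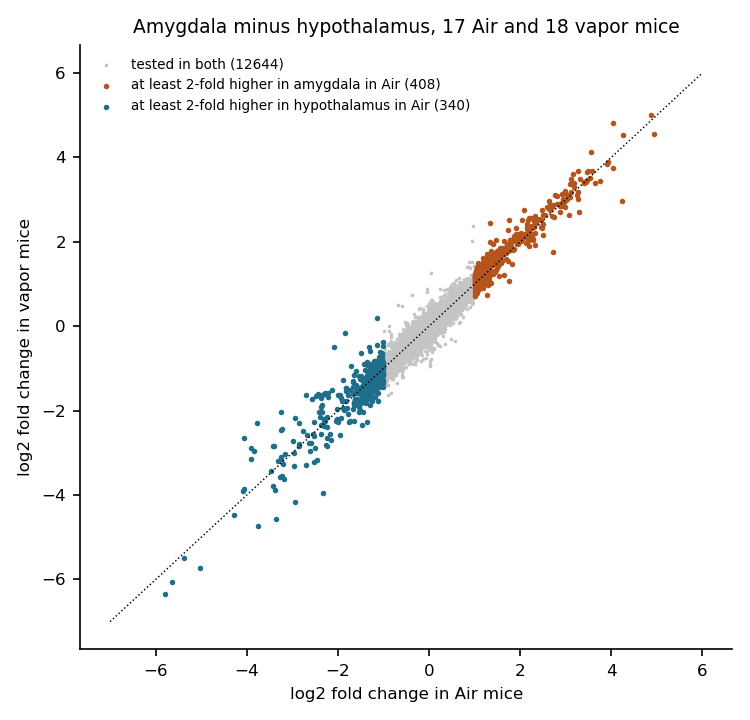
Each point is 1 of 12644 genes tested in both treatments, with its log2 fold change, amygdala minus hypothalamus, in 17 Air mice on the x axis and in 18 vapor mice on the y axis. The 408 amygdala genes and 340 hypothalamus genes at least 2-fold apart in Air mice lie along the dotted line of equal values, and 1 of the 340, Calml4, lies above 0.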

How the data were processed

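RNA of brain micropunches was measured by TagSeq (300 ng of RNA, 100-bp reads). Per the labels, the authors deposited raw counts per gene. The submitters' processing notes name Bowtie2, SAMtools, HTSeq, limma 3.42.2 and GRCm38 (mm10). The sources used here state neither annotation release nor strand setting, so reads of a gene and an antisense or overlapping neighbor cannot be told apart. Spike-in rows and the HTSeq summary rows were dropped, and the latter held a median of 29.3% (amygdala) and 30.3% (hypothalamus) of a library. GENCODE gave symbols and positions for 54487 of 55385 gene identifiers by exact match and for 657 more by the identifier stem, which left 241 unnamed. Of 700 genes on the lists, 11 had 0 counts in every brain library: Cacng8, Egr2, Hba-a2, Itgam, Jund, Kiss1, Neurod1, Rtn4r, Slc18a3, Trem2 and Tubb3. For these, a lack of RNA and reads not assigned in counting cannot be told apart.

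Counts were fitted with edgeR 4.0.16 in R 4.3.3 (TMM factors, filterByExpr with a minimum count of 10 and a total of 15, quasi-likelihood test, Benjamini-Hochberg adjustment over all genes tested), with mouse as a block and region as the term, without the unpaired mice 28 and 38. Pairing is by animal. Deviations from the group means of libraries of the same mouse correlated with r of -0.025 to 0.268 (median 0.09). Sex and treatment differences in the contrast were interaction terms. No libraries were alike within sampling noise. A prior count of 2 was used only for log CPM values, such as those of the deviations above. Fold changes were fitted at edgeR's default prior count. In simulated counts, 97.5% of 200 genes changed 2-fold were recovered for the regional contrast in Air mice over 12545 genes, 84.5% for the sex term over 12636 and 93.5% for the treatment term over 12767. False calls were 5.34%, 4.52% and 6.03% of the calls. The counts were drawn from the fitted model itself. For the regional contrast only these 200 genes differed, unlike the data, where 58.1% were called. The p-values measure the spread between mice. Alternatives used DESeq2 1.42.0, limma 3.58.1, other scalings, no filter, no block and animals left out. Genes were named by the 12 largest differences each way (adjusted p under 0.05, at least 20 CPM in the higher region, the same sign in all 17 mice), the 3 smallest adjusted p-values each way, membership of a described list, and the interaction terms. The members, lists and tests were chosen with earlier results of these data known.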

Additional observations from a re-analysis of the deposited data

Results flagged for a closer look

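Within groups of 7 or 10 libraries of one sex and region, 26 of 140 groups (18.6%) had a library far from the others by Dixon's test at the 95% level. Chance alone gives about 5% for normally distributed values. The test was applied to CPM without a log, and some groups lay near 0 CPM, so the 5% is no exact reference here. Among amygdala genes, the high hypothalamus libraries were Ankrd63 at 2.898 CPM (female mouse 26), Slc17a7 at 51.42 CPM (male mouse 12), Crym at 15.58 CPM (female mouse 27), Neurod6 at 7.357 CPM (female mouse 30) and Kcnj4 at 13.31 CPM (male mouse 15). Among hypothalamus genes, the high amygdala libraries were Hcrt at 32.22 CPM and Pmch at 155.3 CPM (both male mouse 7), Otp at 8.748 CPM (female mouse 27), Sim1 at 12.42 CPM (female mouse 39) and 8.39 CPM (male mouse 12), Cbln1 at 21.3 CPM (female mouse 26) and 29.47 CPM (male mouse 7), and Ebf3 at 7.776 CPM (female mouse 27). Ppp1r17 was at 0 CPM in amygdala of female mouse 37 and at 49.43 CPM in hypothalamus of male mouse 15, where Ebf3 was at 80.61 CPM. Celf6 was low at 45.78 CPM in amygdala of female mouse 40.

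Summed marker lists stood apart in the same way. Thalamus and habenula genes reached 1783 CPM in hypothalamus of female mouse 29 and 3324 CPM in that of male mouse 12. Ependymal and choroid plexus genes reached 1202 CPM in amygdala of female mouse 26 and 5492 CPM in that of male mouse 12, and were low at 158.2 CPM in hypothalamus of female mouse 26. Pituitary hormone genes reached 222.6 CPM in hypothalamus of female mouse 27, mostly Pomc, and 106.7 CPM in that of male mouse 10, mostly Gh. Liver genes reached 1799 CPM in amygdala of female mouse 26 and 4951 CPM in that of male mouse 12, where the list counts Ttr, which choroid plexus also makes.

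The regional contrast differed between females and males, by the sex-by-region term, for Arpp21 (difference in log2 fold change 1.249), Pde10a (1.18) and Itpka (1.316). Over the other settings, the call was kept in 20 of 69 combinations of gene and setting and lost in 49, with the direction unchanged. The calls of all 3 were lost with limma voom and without the block by mouse. Sex and any batch tied to sex cannot be told apart.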

How the results depend on the processing

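The region counts were recomputed under 145 combinations of result and setting, and 119 stayed within 1.5 times of the value reported. For genes named by the size or adjusted p of their difference or by the sex term, the regional contrast kept direction and call in 755 of 755 combinations of gene and setting. Most of these genes were chosen from the same data for large differences or small adjusted p-values. Of up to 27 settings per gene, 17 left out only 1 mouse. Kept calls were therefore likely from the start. Genes named only as list members were not followed one by one. Without the replicate block, 3764 and 3750 genes were called higher in amygdala and hypothalamus. A test against a 2-fold change (glmTreat) called 235 genes in amygdala and 198 in hypothalamus. With no filter on low counts, 780 and 1003 genes passed the 2-fold limit, more genes being tested. Library totals gave 2509 and 5442 calls. Leaving out each mouse gave 3513 to 3644 calls for amygdala and 3563 to 3780 for hypothalamus, and 393 to 416 and 330 to 365 at 2-fold. The sex-by-region count of 3 became 21 with DESeq2, 0 with limma voom, 274 with no filter, 0 without the replicate block, 1 without the mice high in Tcf7l2 and 0 to 10 when mice were left out. The treatment-by-region count was 163 with no filter and otherwise 0. The cause of these changes was not tested. At these depths a gene near 1 CPM rests on few reads. In hypothalamus, peptides of small nuclei and the place of the punch cannot be told apart.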

Other observations

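Further lists were counted in the same contrast, again by the adjusted p over all genes tested, of which 29.1% were higher in amygdala and 29.0% in hypothalamus. Interneuron genes were higher in amygdala for 11 of 16 tested and in hypothalamus for 2, with a median log2 fold change of 0.77. General neuronal genes gave 10 and 3 of 14 with a median of 0.42. Axon guidance genes gave 24 and 6 of 39 with a median of 0.35. Monoamine and acetylcholine receptors gave 13 and 7 of 26 with a median of 0.29, and steroid and thyroid hormone receptor genes 9 and 3 of 16 with a median of 0.21. Calcium, sodium and HCN channel genes gave 16 and 5 of 31 with a median of 0.19, or 13 and 12 with library totals. Hippocampal genes gave 8 and 3 of 12 with a median of 0.87, and endothelial genes 7 and 0 of 16 with a median of 0.17, which became 3 and 1 with library totals. Thalamus and habenula genes lay toward hypothalamus, 9 of 13 against 3, with a median of -0.68. These were 7 and 4 with a median of -0.19 without the 5 mice over 150 CPM of Tcf7l2 in hypothalamus, and 7 and 4 with a median of -0.53 by DESeq2. The summed list was at 3324 CPM in hypothalamus of mouse 12. Of blood cell genes, 5 were tested, with log2 fold changes from 0.02 (Alas2) to 0.34 (S100a8), and none passed.

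Single animals held high levels of genes from further sites. C1ql2, a gene of dentate gyrus granule cells, was at 82.2 CPM in amygdala of mouse 10 and at most 12.0 CPM in any other amygdala library. Foxb1, a factor known from the posterior hypothalamus, was at 73.4 CPM in hypothalamus of mouse 15 and at most 11.8 CPM in any other. Gh, growth hormone of the pituitary, was at 84.2 CPM in hypothalamus of mouse 10 and at most 11.4 CPM in any other. These genes were picked after their values were seen.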
